A study of Homo sapiens with 6 samples.

Results

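Distal chromosome 14 is described here as the genes of human chromosome 14 whose start lies at 70000000 bp or beyond on the build hg38, up to the end of the long arm. The deposited tables listed 424 gene IDs there. Of these, 182 reached 1 TPM (transcript abundance scaled by length and by the total of the library) in at least 2 of the 6 libraries. Another 5 were left out by name and 5 as antisense or intergenic transcripts, which left 172 members among 14195 genes tested in the whole series. The remaining 242 gene IDs lay below that level, and 180 of those were listed at 0 in all 6 libraries. The members were thus chosen by position and by level, and the span was picked with earlier results of these libraries known, so the counts over members below are descriptions. Of the 172 members, 157 reached 1 TPM in all 6 libraries and 4 in only 2, which were RPS6KL1, C14orf178, STON2 and DIO3. Those 4 entered through the single line in which they were high. Just inside the level filter, the second-highest library held 1.02 TPM of C14orf178, 1.06 TPM of DIO3 and 1.11 TPM of TTC7B. Just outside it, the value was 0.923 TPM for MIR6765, 0.876 TPM for LOC730202 and 0.842 TPM for EML5. The last tested gene before the span was SRSF5, which starts at 69767112 bp, and the first inside was COX16 at 70325081 bp.

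The libraries came from 3 human lines grown conventionally, with 2 libraries each. They were PC9-AMG and PC9-BrM4, both sublines of PC9, and PC9 itself, which was grown from a human lung adenocarcinoma and carries an activating EGFR mutation that the sublines inherit. PC9-BrM4 is, from background knowledge and not from the labels, a derivative selected for metastasis to the brain. The labels leave AMG unexplained. The labels name no drug, no other treatment and no clone. Aligned sequence behind a library, estimated from the deposited coverage, ran from 2.66 to 4.39 gigabases. Epithelial markers were high in every library (EPCAM at 665 to 726 TPM), while the lung lineage markers NKX2-1 and SFTPB were at or near 0 and NAPSA reached at most 0.887 TPM. Among markers of other cell types, DCN and MOG, of fibroblasts and oligodendrocytes, were listed at 0 in all 6 libraries, and the leukocyte marker PTPRC reached at most 0.150 TPM. Others on the same lists were present. The fibroblast marker COL1A1 held 14.4 and 14.8 TPM in PC9-AMG, 3.68 and 4.43 TPM in PC9-BrM4 and 4.77 and 5.02 TPM in PC9. The oligodendrocyte marker MBP lay at 28.3 to 33.2 TPM and the leukocyte marker CD68 at 39.9 to 49.2 TPM over the 6 libraries. Of the endothelial markers, PECAM1 reached at most 2.03 TPM and VWF 0.497 TPM, and the astrocyte marker GFAP 0.228 TPM. Their part in the results was not tested.

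The distal long arm of chromosome 14 carries genes of many unrelated roles side by side. They include the lysosomal cholesterol carrier NPC2, the microRNA-processing enzyme DICER1, the dynein motor heavy chain DYNC1H1 and the kinase AKT1. Near the end of the arm lies an imprinted cluster, in which MEG3 and DLK1 are expressed from opposite parental copies in normal tissue. Many of the genes stand head to head, so that neighbours on opposite strands start within a short distance of each other and share the DNA between their starts. MEG3 and DLK1 were both listed at 0 in all 6 libraries and so are not members.

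In PC9-AMG, 84 of the 172 members were lower than in PC9 and 13 were higher, and 75 did not pass the test (limma on log2(TPM + 1), adjusted over all 14195 genes, threshold 0.05). Over all tested genes 27.7% were called lower and 27.8% higher. On the log2(TPM + 1) scale, 45 members were lower by at least 2-fold, against 1.66% of all tested genes, and 0 members were higher by that much, against 2.80% of all tested genes. The median log2 difference of the members was -0.21, against -0.0058 over all tested genes. In bulk RNA, fewer cells with a transcript and less of it per cell cannot be told apart.

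The low members of PC9-AMG lay next to each other. Taking 3 or more members in a row, each with a log2 difference below -0.5, gave 7 runs that held 58 of the 172 members, or 33.7%. The same rule over the 14189 tested genes placed on the main chromosomes took in 285, or 2.01%. This cut was chosen after the values were seen and fixes the direction of the members inside the runs, so it carries no test. The first run reached from CCDC176 to JDP2 and held 20 members over 1.45 Mb. The second reached from TGFB3 to SNW1 with 18 members over 1.80 Mb, and the remaining ones held 3 to 6 members each. Across the 114 members outside the runs, 26 were called lower, 13 higher and 75 neither, with a median of -0.04. Of all tested genes, 27.7% were called lower and 27.8% higher. Members in runs also had higher levels than the others, with a median of 23.1 TPM in PC9-AMG, 61.3 TPM in PC9-BrM4 and 54.9 TPM in PC9. Outside the runs the medians were 12.5, 14.6 and 13.2 TPM in the same order.

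**Figure D1:**
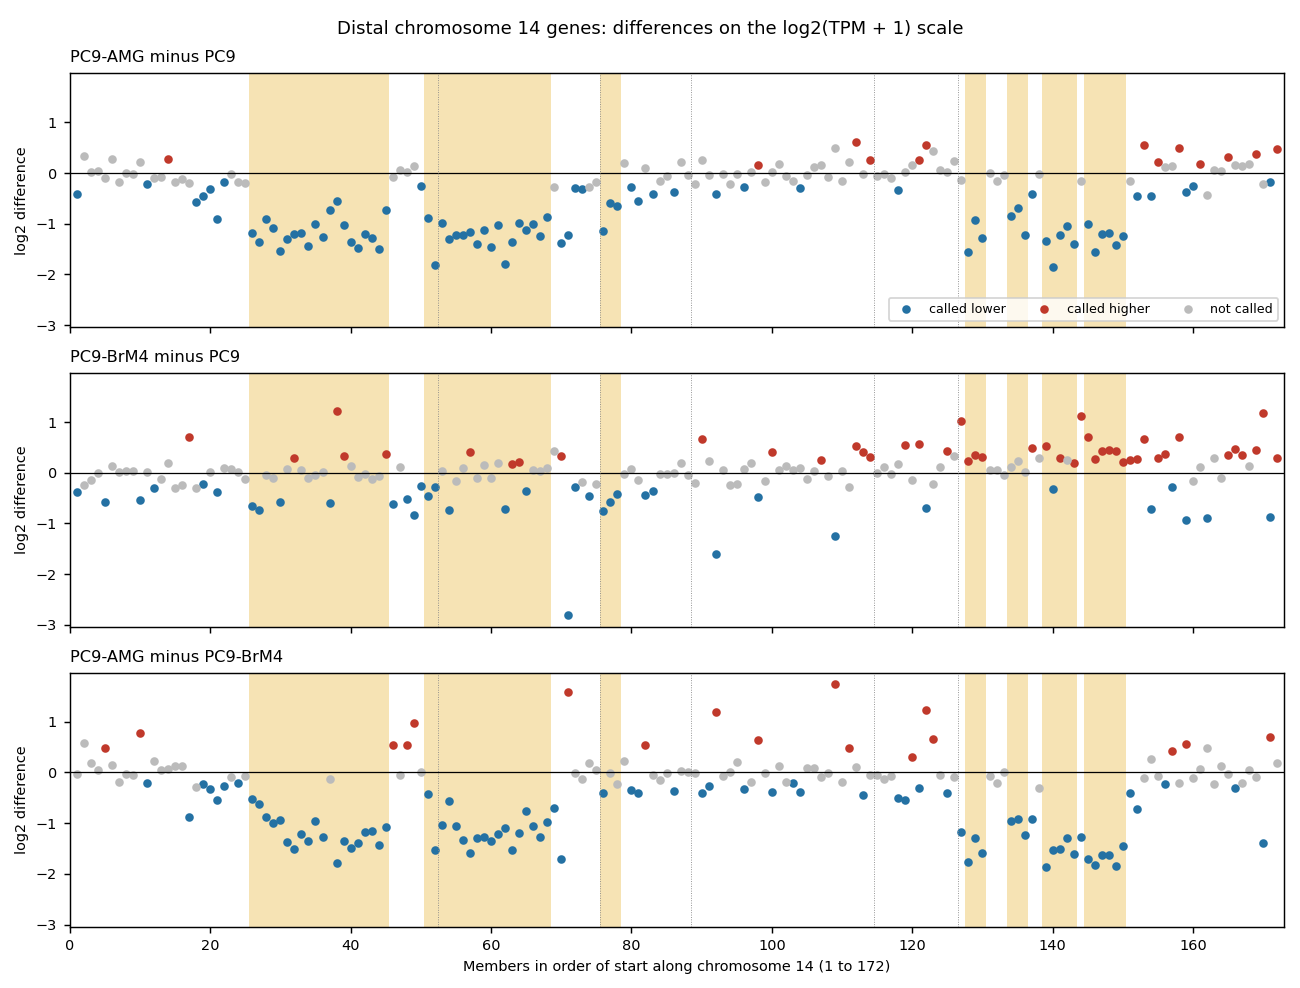
Differences in log2(TPM + 1) for the 172 members in order of start along chromosome 14 (x axis, member number), with PC9-AMG minus PC9 at the top, PC9-BrM4 minus PC9 in the middle and PC9-AMG minus PC9-BrM4 below. Blue and red points were called lower and higher, grey points were not called, shading marks the 7 runs found in PC9-AMG, and dotted lines separate the 6 stretches. The median of the shaded members is -1.21 in the top panel and 0.06 in the middle panel. The runs differ, with medians of -0.66 and -0.57 in the third and -1.22 and 0.43 in the seventh, in the same order.

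The size of the fall in run members is a description only, since the cut of -0.5 that picked them leaves out smaller falls. Among the 45 run members with at least 10 TPM in PC9, the mean TPM in PC9-AMG was 0.420 of that in PC9 in the median. The quartiles were 0.363 and 0.468 and the extremes 0.272 and 0.600. Summed over the run members, the 2 PC9-AMG libraries held 3173 and 3210 TPM. The same sum was 7852 and 7884 TPM in PC9-BrM4 and 7686 and 7735 TPM in PC9. The members outside the runs summed to 2842 and 2814 TPM in PC9-AMG, 2987 and 3009 TPM in PC9-BrM4 and 2989 and 2969 TPM in PC9. All members together made up 0.602% of the total in each PC9-AMG library, 1.08% and 1.09% in PC9-BrM4 and 1.07% in each PC9 library. The replicates of a line lay close together, and the 2 PC9-AMG libraries show the same blocks of low members in the map of single libraries.

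**Figure D2:**
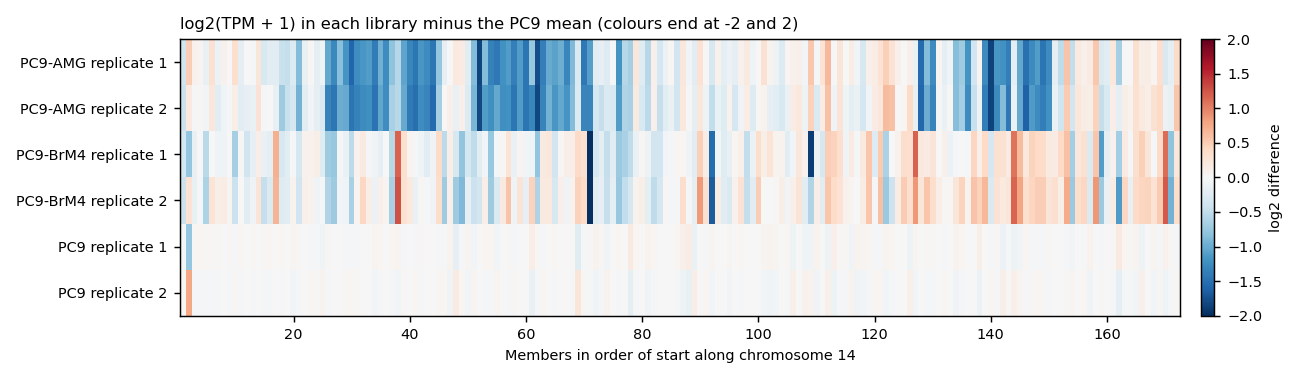
Each of the 6 libraries (rows) as its log2(TPM + 1) minus the mean of the 2 PC9 libraries, for the 172 members in order of start (columns). Blue blocks in both PC9-AMG rows mark the runs, and the median absolute log2 difference between replicates over the members was 0.0803 in PC9-AMG, 0.106 in PC9-BrM4 and 0.0585 in PC9.

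For the description in order of start, the members were put in 6 stretches by their start, with edges at 76, 82, 91 and 96 Mb and a last one just before DIO3 at 101561351 bp. The first 25 members, from COX16 to ENTPD5, lay before the first run. COX16, an assembly factor of cytochrome c oxidase, held 81.5 and 80.1 TPM in PC9-AMG, 84.6 and 80.1 TPM in PC9-BrM4 and 105 and 111 TPM in PC9. It was lower in both sublines, with log2 differences of -0.41 ± 0.05 (SE) in PC9-AMG and -0.39 ± 0.05 in PC9-BrM4. COX16 shares its reads with the readthrough transcript SYNJ2BP-COX16, so the split between them is uncertain. The mediator subunit MED6 lay between 40.4 and 43.5 TPM over the 6 libraries and the Rap GTPase activator SIPA1L1 between 33.4 and 39.3 TPM. Their log2 differences in PC9-AMG, 0.039 and 0.0015, did not pass, nor did that of the Notch antagonist NUMB at -0.08 ± 0.06. C14orf169, now named RIOX1 and an oxygenase of histones and ribosomal proteins, was called higher in PC9-AMG at 0.27 ± 0.07. That call was lost without PC9 replicate 1, PC9 replicate 2 or PC9-AMG replicate 2, with adjusted p of 0.052 to 0.069 in limma. The acyl-CoA thioesterases ACOT1 and ACOT2, near-identical copies whose reads could be split between them, lay at 3.16 to 4.82 and 5.38 to 6.99 TPM and were not called in either subline. Their neighbour ACOT4 was higher in PC9-BrM4, at 16.1 and 15.7 TPM against 9.52 and 9.30 TPM in PC9, a log2 difference of 0.70 ± 0.07. Over all tested genes 27.7% were called lower in PC9-AMG and 27.8% higher. Of the 25 members before the first run, 7 were lower in PC9-AMG, a share near that of all genes. Another 1 of the 25 was higher and 17 were not called. The lowest of the 25 was PTGR2, a prostaglandin reductase, with 11.4 and 10.7 TPM against 22.0 and 21.3 TPM in PC9 (-0.91 ± 0.07, limma adjusted p = 4.8e-05). DNAL1, a light chain of axonemal dynein, came next at -0.58.

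The first run began between neighbours that stand head to head. ENTPD5, a nucleoside diphosphatase of the endoplasmic reticulum on the minus strand, held 7.91 and 6.74 TPM in PC9-AMG, 7.07 and 8.31 TPM in PC9-BrM4 and 8.05 and 8.97 TPM in PC9. Its PC9-AMG and PC9 values did not overlap, yet the difference of -0.19 ± 0.11 did not pass (limma adjusted p = 0.18). By the deposited gene bounds, used here for all distances between starts, CCDC176 starts 33 bases away on the plus strand. CCDC176 is now named BBOF1 and is known for the orientation of basal bodies in ciliated cells. It held 3.24 and 2.40 TPM in PC9-AMG, 4.23 and 4.68 TPM in PC9-BrM4 and 7.67 and 7.48 TPM in PC9. The 3 lines did not overlap, with PC9-AMG lowest and PC9 highest, and the difference from PC9 was -1.18 ± 0.12 in PC9-AMG and -0.65 ± 0.12 in PC9-BrM4. CCDC176 overlaps ALDH6A1 on the other strand, and whether strand was used in counting is not stated. The fifth run, past 102 Mb, began in the same way at CINP, a cell cycle checkpoint protein, and TECPR2, a protein of autophagy, whose starts are 47 bases apart. CINP held 43.5 and 47.4 TPM in PC9-AMG, 42.9 and 47.3 TPM in PC9-BrM4 and 46.7 and 46.1 TPM in PC9, so all lines overlapped. TECPR2 held 6.06 and 6.05 TPM in PC9-AMG, 11.5 and 14.1 TPM in PC9-BrM4 and 12.3 and 11.2 TPM in PC9, and was lower in PC9-AMG alone at -0.85 ± 0.10 against PC9 and -0.96 ± 0.10 against PC9-BrM4.

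The shared starting regions of 4 head-to-head pairs are shown as 300-base windows, from 250 bases before to 50 bases after the RefSeq start of the plus-strand gene on GRCh38.p14, because they hold the starts of both genes of a pair. The first pair of windows lies at the edge of a run, with 1 gene of each pair low in PC9-AMG and the other not. The second pair lies inside runs, with both genes low. Capitals mark matches on either strand to 1 of 7 short motifs. They were the GC box GGGCGGG, the box named after its letters CCAAT, the TATA box TATAAA, the ETS motif CCGGAAG, the cyclic AMP response element TGACGTCA, the AP-1 motif TGANTCA and the YY1 motif AAGATGGC.
ENTPD5 and CCDC176, chr14:74019099-74019398, plus strand: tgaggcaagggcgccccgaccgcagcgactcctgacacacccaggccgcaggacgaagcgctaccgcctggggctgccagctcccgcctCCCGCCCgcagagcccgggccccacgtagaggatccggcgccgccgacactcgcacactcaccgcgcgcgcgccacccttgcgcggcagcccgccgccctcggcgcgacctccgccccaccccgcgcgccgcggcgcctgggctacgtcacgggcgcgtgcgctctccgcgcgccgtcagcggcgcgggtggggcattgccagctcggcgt
CINP and TECPR2, chr14:102362691-102362990, plus strand: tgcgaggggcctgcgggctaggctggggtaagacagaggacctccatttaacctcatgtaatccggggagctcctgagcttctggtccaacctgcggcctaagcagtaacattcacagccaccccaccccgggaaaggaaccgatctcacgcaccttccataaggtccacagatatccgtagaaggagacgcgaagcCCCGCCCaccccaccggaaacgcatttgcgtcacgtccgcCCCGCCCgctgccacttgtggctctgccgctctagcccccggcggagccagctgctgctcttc
AREL1 and FCF1, chr14:74712894-74713193, plus strand: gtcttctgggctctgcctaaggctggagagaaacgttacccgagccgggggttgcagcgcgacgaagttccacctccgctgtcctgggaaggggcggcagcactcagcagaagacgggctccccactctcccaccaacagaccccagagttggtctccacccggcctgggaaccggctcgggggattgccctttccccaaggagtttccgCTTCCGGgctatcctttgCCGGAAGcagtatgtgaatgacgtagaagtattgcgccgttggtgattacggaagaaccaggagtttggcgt
POMT2 and GSTZ1, chr14:77320786-77321085, plus strand: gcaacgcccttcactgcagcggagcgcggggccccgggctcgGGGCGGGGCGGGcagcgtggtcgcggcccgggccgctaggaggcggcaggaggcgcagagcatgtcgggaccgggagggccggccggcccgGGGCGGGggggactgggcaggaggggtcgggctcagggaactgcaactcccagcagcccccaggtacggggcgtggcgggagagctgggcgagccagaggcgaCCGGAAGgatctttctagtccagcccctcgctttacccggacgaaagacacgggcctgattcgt
The ENTPD5 and CCDC176 window held 1 GC box and the CINP and TECPR2 window 2. The AREL1 and FCF1 window held 2 ETS motifs facing opposite ways. The POMT2 and GSTZ1 window held 3 GC boxes, of which the first 2 overlap, and 1 ETS motif. A RefSeq window was found for 153 of the 172 members. A GC box stood in 60.8% of these, against 33.1% of 35116 windows of all genes, an ETS motif in 17.6% against 10.3%, and a TATA box in 2.61% against 11.5%. CCAAT stood in 34.6% of both. The cyclic AMP response element stood in 3.92% of member windows against 1.85% of all, the AP-1 motif in 2.61% against 7.71% and the YY1 motif in 6.54% against 2.89%. The windows of all genes were taken without the level filter and without a choice of gene type. Of the 172 members, 165 were protein coding. No comparison with expressed genes alone was made, so whether these gaps are particular to the span was not tested. These are matches of letters and not sites of binding.

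Head-to-head pairs are neighbours, so the run rule itself favours pairs that are low together. Of 23 pairs of members whose starts lie within 1000 bases of each other on opposite strands, 10 had both genes in runs. In 6 pairs 1 gene was called lower in PC9-AMG, and in 7 pairs neither was. By the deposited gene bounds, the closest starts inside a run belong to POMT2, a protein O-mannosyltransferase, and GSTZ1, an isomerase of tyrosine breakdown, at 5 bases. The RefSeq starts behind the windows above lie elsewhere for some genes, GSTZ1 among them, so distances between RefSeq starts differ. POMT2 had a log2 difference of -1.12 ± 0.07 and GSTZ1 of -1.46 ± 0.05. AREL1, a ubiquitin ligase, and FCF1, a factor of ribosomal RNA processing, start 43 bases apart and differed by -1.17 ± 0.07 and -1.44 ± 0.05. ALKBH1, a nucleic acid demethylase, and SLIRP, which binds mitochondrial mRNA, start 58 bases apart and differed by -0.998 ± 0.06 and -1.24 ± 0.07.

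The run from CCDC176 to JDP2 covered genes of lipid transport, mitochondria, translation and DNA repair. NPC2, the small lysosomal protein that binds cholesterol, was the most abundant member in PC9. It held 453 and 493 TPM in PC9-AMG, 948 and 873 TPM in PC9-BrM4 and 1334 and 1395 TPM in PC9. The lines did not overlap, with PC9-AMG lowest, PC9-BrM4 between and PC9 highest, and the differences from PC9 were -1.53 ± 0.06 in PC9-AMG and -0.58 ± 0.06 in PC9-BrM4 (limma adjusted p = 4.1e-06 and 0.00022). ISCA2, an iron-sulfur cluster assembly protein that starts 339 bases from NPC2, fell by 1.298 ± 0.05 on the log2 scale in PC9-AMG and showed 0.07 ± 0.05 in PC9-BrM4. LTBP2, a matrix protein of the latent TGF-beta binding family, held 42.4 and 39.9 TPM in PC9-AMG, 109 and 129 TPM in PC9-BrM4 and 97.4 and 95.8 TPM in PC9. It was lower in PC9-AMG at -1.21 ± 0.08, while its call as higher in PC9-BrM4 at 0.29 ± 0.08 was lost without PC9 replicate 1, PC9 replicate 2 or PC9-BrM4 replicate 2, with limma adjusted p of 0.062 to 0.078, and with no filter (0.058).

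DLST, a core subunit of the 2-oxoglutarate dehydrogenase complex of the citric acid cycle, held 139 and 140 TPM in PC9-AMG, 332 and 346 TPM in PC9-BrM4 and 335 and 331 TPM in PC9. PC9-AMG lay far below the other lines, which overlapped each other, and the difference from PC9 was -1.25 ± 0.04. TMED10, a cargo receptor between the endoplasmic reticulum and the Golgi, showed the same shape at 165 and 152 TPM in PC9-AMG, 426 and 427 TPM in PC9-BrM4 and 450 and 446 TPM in PC9. Its difference in PC9-AMG was -1.497 ± 0.05 (limma adjusted p = 2.2e-06), against -0.07 ± 0.05 in PC9-BrM4, which did not pass. The beta subunit of the exchange factor eIF2B, EIF2B2, held 92.9 and 95.5 TPM in PC9-AMG, 243 and 240 TPM in PC9-BrM4 and 190 and 196 TPM in PC9. EIF2B2 was lower in PC9-AMG at -1.03 ± 0.04 and higher in PC9-BrM4 at 0.32 ± 0.04. MLH3, a DNA mismatch repair protein, was at 5.87 and 5.38 TPM in PC9-AMG, 16.8 and 18.5 TPM in PC9-BrM4 and 16.2 and 15.9 TPM in PC9, a difference of -1.36 ± 0.08 in PC9-AMG. PGF, the placental growth factor, moved differently from its neighbours in PC9-BrM4. It held 3.46 and 3.50 TPM in PC9-AMG, 13.9 and 14.9 TPM in PC9-BrM4 and 5.83 and 5.36 TPM in PC9. The lines did not overlap, and PGF was lower in PC9-AMG at -0.56 ± 0.09 and higher in PC9-BrM4 at 1.23 ± 0.09. The run closed with JDP2, a basic leucine zipper repressor, at 30.4 and 32.8 TPM in PC9-AMG, 68.7 and 67.6 TPM in PC9-BrM4 and 52.0 and 53.4 TPM in PC9, with differences of -0.72 ± 0.05 and 0.36 ± 0.05.

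Between the first and the second run lay 5 members that were not low in PC9-AMG by that measure. BATF, a transcription factor that pairs with JUN proteins, held 46.2 and 52.5 TPM in PC9-AMG, 35.8 and 31.4 TPM in PC9-BrM4 and 50.5 and 53.6 TPM in PC9. PC9-AMG overlapped PC9, with a difference of -0.08 ± 0.08 that did not pass, while PC9-BrM4 lay below both at -0.62 ± 0.08. C14orf1, now named ERG28 after a yeast protein that holds sterol enzymes together, held 157 and 151 TPM in PC9-AMG, 80.9 and 75.6 TPM in PC9-BrM4 and 137 and 144 TPM in PC9. C14orf1 was lower in PC9-BrM4 at -0.84 ± 0.05, and its difference of 0.13 ± 0.05 in PC9-AMG did not pass (limma adjusted p = 0.068), except with only the compared lines (limma adjusted p = 0.0497). The transporter FLVCR2 lay between 3.95 and 4.66 TPM in all 6 libraries, and MIR7641-2, which lies within it on the same strand, between 7.11 and 14.2 TPM. In PC9-AMG their log2 differences were 0.06 ± 0.10 and 0.02 ± 0.17, and neither passed. TTLL5, a tubulin glutamylase whose start is 13 bases from that of C14orf1, was called at -0.25 ± 0.08 in PC9-AMG, and that call was lost without any single library of PC9-AMG or PC9, with limma adjusted p of 0.052 to 0.17, and also with no filter or a replicate block (0.061 and 0.050).

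The second run opened with the growth factor TGFB3, at 0.511 and 0.460 TPM in PC9-AMG, 0.929 and 1.05 TPM in PC9-BrM4 and 1.66 and 1.85 TPM in PC9. These are low levels, and the difference of -0.89 ± 0.11 on the log2(TPM + 1) scale understates the change. IFT43, a subunit of the intraflagellar transport complex A that carries cargo back along cilia, showed a difference in PC9-AMG that was second-lowest among the members on the log2(TPM + 1) scale. It held 36.6 and 37.3 TPM in PC9-AMG, 115 and 103 TPM in PC9-BrM4 and 132 and 133 TPM in PC9. The lines did not overlap, and the differences from PC9 were -1.82 ± 0.06 in PC9-AMG and -0.29 ± 0.06 in PC9-BrM4. SAMD15 followed closely at -1.80 ± 0.10, with 1.41 and 1.34 TPM in PC9-AMG, 3.76 and 4.38 TPM in PC9-BrM4 and 7.37 and 7.14 TPM in PC9. VASH1, which removes the terminal tyrosine of tubulin, was at 1.13 and 1.32 TPM in PC9-AMG, 2.22 and 2.34 TPM in PC9-BrM4 and 4.59 and 4.34 TPM in PC9. For SAMD15 and VASH1 the 3 lines kept the order seen at NPC2, with no overlap.

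The most abundant member of the second run was AHSA1, which stimulates the ATPase of the chaperone HSP90. It held 565 and 593 TPM in PC9-AMG, 1331 and 1312 TPM in PC9-BrM4 and 1132 and 1153 TPM in PC9. The lines did not overlap, and AHSA1 was lower in PC9-AMG at -0.98 ± 0.04 and higher in PC9-BrM4 at 0.21 ± 0.04. SLIRP held 337 and 365 TPM in PC9-AMG, 907 and 795 TPM in PC9-BrM4 and 832 and 831 TPM in PC9, so the 2 PC9-BrM4 libraries lay on either side of PC9. SNW1, a coactivator that also sits in the spliceosome, was at 114 and 115 TPM in PC9-AMG, 228 and 223 TPM in PC9-BrM4 and 215 and 207 TPM in PC9, and its difference in PC9-AMG was -0.88 ± 0.04. SPTLC2, a catalytic subunit of serine palmitoyltransferase, which starts sphingolipid synthesis, was lower in both sublines at -1.12 ± 0.07 and -0.35 ± 0.07. IRF2BPL, a nuclear protein of the IRF2BP family, held 11.9 and 11.1 TPM in PC9-AMG, 32.8 and 40.6 TPM in PC9-BrM4 and 27.5 and 26.6 TPM in PC9. IRF2BPL was lower in PC9-AMG at -1.16 ± 0.10, and its call as higher in PC9-BrM4 was lost without PC9 replicate 2 (0.39, limma adjusted p = 0.057). SLIRP and SNW1 overlap at their ends on opposite strands, so part of their reads could be shared.

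Past the second run, ADCK1, a kinase-like protein of mitochondria, was again low in PC9-AMG at 8.58 and 9.35 TPM, against 30.7 and 32.2 TPM in PC9-BrM4 and 24.2 and 25.3 TPM in PC9. Its difference from PC9 was -1.37 ± 0.07. DIO2, the deiodinase that turns thyroxine into the active hormone, held 10.1 and 8.57 TPM in PC9-AMG, 2.03 and 2.83 TPM in PC9-BrM4 and 23.3 and 22.5 TPM in PC9. Here PC9-BrM4 was lowest and PC9-AMG between, with no overlap, and the differences from PC9 were -1.22 ± 0.13 and -2.81 ± 0.13. That of PC9-BrM4 was the lowest among the members in that line, also with a pseudocount of 0.1 and with FPKM. The 2 transcripts CEP128 and GTF2A1, of a centriole protein and a general transcription factor, showed -0.29 and -0.31 in PC9-AMG. Both calls were lost without PC9 replicate 1 or PC9-AMG replicate 2 and with no filter, and that of GTF2A1 also without PC9 replicate 2 and with only the compared lines (limma adjusted p of 0.056 to 0.18). The GTF2A1 difference was -0.16 without PC9-AMG replicate 2. SEL1L, the adaptor of the ubiquitin ligase that clears misfolded proteins from the endoplasmic reticulum, held 12.6 and 10.3 TPM in PC9-AMG, 10.8 and 11.1 TPM in PC9-BrM4 and 12.9 and 12.8 TPM in PC9. Its differences of -0.17 ± 0.10 and -0.22 ± 0.10 did not pass, but that of PC9-AMG did without PC9-AMG replicate 1 (-0.30, limma adjusted p = 0.035). Over the 23 members of the second stretch, 20 were lower and 0 higher in PC9-AMG, with a median of -1.12. In PC9-BrM4, 6 were lower and 4 higher, with a median of 0.03. The shares over all tested genes were 27.7% lower and 27.8% higher in PC9-AMG, and 23.1% lower and 23.4% higher in PC9-BrM4.

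**Figure D3:**
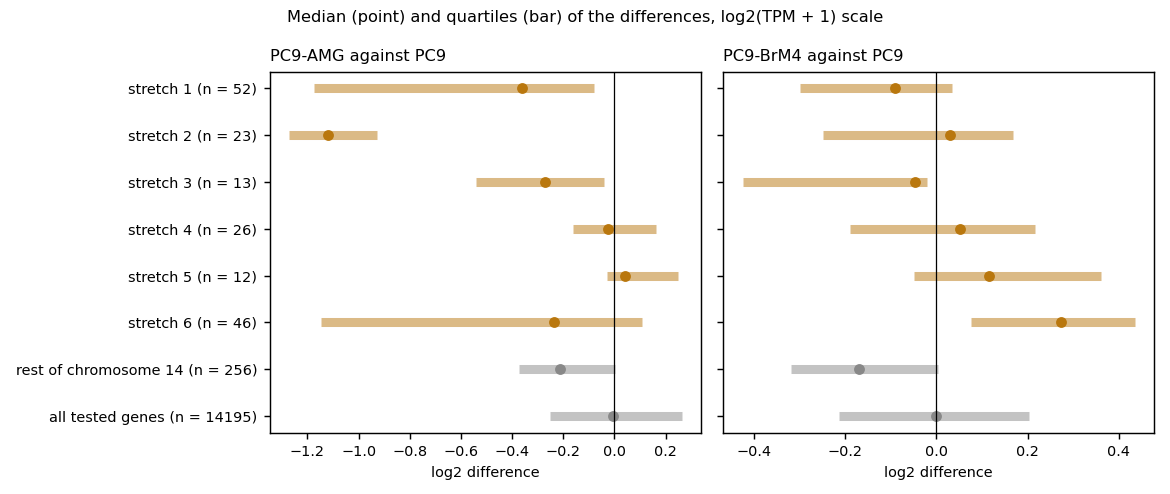
Median (point) and quartiles (bar) of the log2(TPM + 1) differences over the members of each of the 6 stretches in order along the chromosome, over the tested genes of chromosome 14 outside the span and over all tested genes. The left panel shows PC9-AMG minus PC9 and the right panel PC9-BrM4 minus PC9. In PC9-AMG the second stretch lies lowest at -1.12, and in PC9-BrM4 the sixth lies highest at 0.27.

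The third stretch, from 82 to 91 Mb, held 13 members. In PC9-AMG 7 were lower and 0 higher, against 27.7% and 27.8% of all tested genes. In PC9-BrM4 5 were lower and 0 higher, against 23.1% and 23.4%. The run of 3 in this stretch consists of scarce transcripts far apart. They are the adhesion protein FLRT2, the galactosylceramide-degrading enzyme GALC and SPATA7, a protein of the photoreceptor cilium. GALC held 1.68 and 1.61 TPM in PC9-AMG, 1.54 and 1.83 TPM in PC9-BrM4 and 2.95 and 3.01 TPM in PC9. The sublines overlapped and both lay below PC9, at -0.59 ± 0.11 and -0.57 ± 0.11. FLRT2 was likewise lower in both, at -1.15 ± 0.10 and -0.75 ± 0.10. TTC8, a subunit of the BBSome of cilia, held 7.44 and 7.69 TPM in PC9-AMG, 10.6 and 10.02 TPM in PC9-BrM4 and 12.1 and 10.8 TPM in PC9, and its difference of -0.54 ± 0.08 in PC9-AMG passed. The RNA-binding protein ZC3H14 showed -0.27 ± 0.07 in PC9-AMG, a call lost without PC9 replicate 2 or PC9-AMG replicate 2 (limma adjusted p of up to 0.059).

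Between 91 Mb and DIO3, in the fourth stretch and the fifth, PC9-AMG differed little from PC9. In the fourth, 3 of 26 members were lower and 3 higher, with a median of -0.02, and in the fifth 1 of 12 was lower and 2 higher, with a median of 0.04. In PC9-BrM4, 3 were lower and 6 higher in the fourth stretch, and 1 lower and 3 higher in the fifth. Of all tested genes, 27.7% were lower and 27.8% higher in PC9-AMG, and 23.1% lower and 23.4% higher in PC9-BrM4. LGMN, the lysosomal protease legumain, held 59.9 and 58.4 TPM in PC9-AMG, 37.3 and 37.7 TPM in PC9-BrM4 and 53.2 and 52.1 TPM in PC9. It was lower in PC9-BrM4 at -0.48 ± 0.05, while its call as higher in PC9-AMG at 0.17 ± 0.05 was lost without PC9 replicate 1, PC9 replicate 2 or PC9-AMG replicate 1 (limma adjusted p of 0.078 to 0.13). ITPK1, a kinase of inositol phosphates, was higher in PC9-BrM4 at 94.2 and 104 TPM against 73.6 and 74.3 TPM in PC9 (0.42 ± 0.06), and showed 0.03 ± 0.06 in PC9-AMG. TC2N held 3.06 and 2.62 TPM in PC9-AMG, 0.743 and 0.599 TPM in PC9-BrM4 and 4.30 and 3.87 TPM in PC9, and its difference in PC9-BrM4 was -1.61 ± 0.12. IFI27L2 was listed at 0 and 1.45 TPM in PC9-BrM4, with 4.37 and 4.09 TPM in PC9-AMG and 2.52 and 2.88 TPM in PC9. Its call as lower in PC9-BrM4 was lost without either PC9 library, with limma adjusted p of 0.055 and 0.077, and also with no filter, only the compared lines or a pseudocount of 0.1, at 0.051 to 0.085. The difference of -1.24 was -0.60 without PC9-BrM4 replicate 1, -1.89 without PC9-BrM4 replicate 2, -0.77 with FPKM and -2.83 with the pseudocount of 0.1.

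GLRX5, a mitochondrial glutaredoxin of iron-sulfur cluster transfer, was higher in both sublines, at 54.0 and 54.4 TPM in PC9-AMG, 57.3 and 55.7 TPM in PC9-BrM4 and 46.0 and 44.9 TPM in PC9 (0.25 ± 0.05 and 0.31 ± 0.05). SYNE3, a linker of nucleus and cytoskeleton, rose at low levels in both, by 0.62 ± 0.12 and 0.52 ± 0.12, and in PC9-AMG this was the largest rise among the members on the log2(TPM + 1) scale. These values depend on the offset, at 1.13 and 0.97 with a pseudocount of 0.1 and 0.37 and 0.30 with FPKM. The call in PC9-BrM4 was lost without PC9 replicate 1 (limma adjusted p = 0.051). The microRNA-processing enzyme DICER1 held 10.3 and 8.50 TPM in PC9-AMG, 10.03 and 11.8 TPM in PC9-BrM4 and 11.2 and 10.03 TPM in PC9, and the lines overlapped. The poly(A) polymerase PAPOLA, at 56.0 to 64.6 TPM, and the zinc finger factor YY1, at 35.2 to 39.6 TPM, were not called in either subline. VRK1, a chromatin kinase of dividing cells, was lower in PC9-AMG at 16.5 and 16.1 TPM, against 24.1 and 23.1 TPM in PC9-BrM4 and 21.6 and 20.1 TPM in PC9 (-0.34 ± 0.07 against PC9). UBR7, a ubiquitin ligase of histones, showed -0.29 ± 0.06 in PC9-AMG. SETD3, the actin histidine methyltransferase, was higher in PC9-BrM4 at 27.9 and 27.7 TPM against 19.1 and 18.1 TPM in PC9 (0.56 ± 0.07), with 19.9 and 17.8 TPM in PC9-AMG. Its neighbour CCNK, the cyclin of the transcription kinase CDK12, held 18.2 and 18.2 TPM in PC9-AMG, 13.4 and 15.9 TPM in PC9-BrM4 and 15.8 and 16.7 TPM in PC9, and was not called against PC9. Without PC9-BrM4 replicate 2 its difference in PC9-BrM4 was -0.26 (limma adjusted p = 0.040). CCDC85C rose in PC9-BrM4 at 0.56 ± 0.07. The microtubule protein EML1 split the sublines at low levels, with 2.36 and 2.73 TPM in PC9-AMG, 0.554 and 0.453 TPM in PC9-BrM4 and 1.504 and 1.33 TPM in PC9, and its differences were 0.55 ± 0.12 and -0.69 ± 0.12. EVL, an actin filament elongation factor, held 2.77 and 3.67 TPM in PC9-AMG, 2.07 and 1.32 TPM in PC9-BrM4 and 2.19 and 2.01 TPM in PC9, and was not called against PC9. With only the compared lines, its difference of 0.44 in PC9-AMG passed (limma adjusted p = 0.033).

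The sixth stretch, from DIO3 to the end, held 46 members and combined falls in PC9-AMG with rises in PC9-BrM4. In PC9-AMG, 23 were lower and 7 higher, against 27.7% and 27.8% of all tested genes. In PC9-BrM4, 6 were lower and 27 higher, against 23.1% and 23.4% of all tested genes. The medians of the stretch were -0.24 in PC9-AMG and 0.27 in PC9-BrM4. It opens with DIO3, the deiodinase that inactivates thyroid hormone, at 0.0226 and 0.0152 TPM in PC9-AMG, 1.55 and 1.06 TPM in PC9-BrM4 and 0.168 and 0.0823 TPM in PC9. DIO3 passed the level filter through PC9-BrM4 alone. Next, from 101761798 to 103733668 bp, came 4 short runs of PC9-AMG, broken by members with differences above -0.5.

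PPP2R5C, a regulatory subunit of protein phosphatase 2A, held 72.3 and 70.8 TPM in PC9-AMG, 246 and 249 TPM in PC9-BrM4 and 212 and 211 TPM in PC9. No lines overlapped, and PPP2R5C was lower in PC9-AMG at -1.55 ± 0.04 and higher in PC9-BrM4 at 0.22 ± 0.04 (limma adjusted p = 1.5e-06 and 0.0027). DYNC1H1, the heavy chain of the dynein motor that moves cargo toward microtubule minus ends, was at 138 and 126 TPM in PC9-AMG, 282 and 370 TPM in PC9-BrM4 and 255 and 248 TPM in PC9. DYNC1H1 was lower in PC9-AMG at -0.93 ± 0.11. Its call as higher in PC9-BrM4 at 0.36 ± 0.11 was lost without PC9 replicate 1, PC9 replicate 2 or PC9-BrM4 replicate 2, at 0.16 without the last of these, with limma adjusted p of 0.083 to 0.11. It was also lost with no filter, no mean-variance trend, only the compared lines or a replicate block (limma adjusted p of 0.051 to 0.11). Between the fourth and the fifth run, the kinase MOK lay at 19.4 to 21.9 TPM in all 6 libraries, with a log2 difference of -0.0046 in PC9-AMG. That of the zinc finger protein ZNF839 was -0.15 and that of CINP -0.03, and none of the 3 passed. RCOR1, the corepressor CoREST, closed the fifth run at 24.1 and 23.1 TPM in PC9-AMG, 54.9 and 59.4 TPM in PC9-BrM4 and 56.4 and 56.6 TPM in PC9 (-1.22 ± 0.06 in PC9-AMG).

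TRAF3, a ubiquitin ligase adaptor that restrains the alternative NF-kB pathway, held 15.8 and 15.1 TPM in PC9-AMG, 28.4 and 31.4 TPM in PC9-BrM4 and 21.0 and 20.7 TPM in PC9. The lines did not overlap, with differences of -0.41 ± 0.07 in PC9-AMG and 0.50 ± 0.07 in PC9-BrM4. TNFAIP2, a TNF-induced protein of membrane tubes, had the lowest difference of all members in PC9-AMG on the log2(TPM + 1) scale. With a pseudocount of 0.1, the scarcer SAMD15 and SNORA28 lay lower. It held 42.2 and 41.8 TPM in PC9-AMG, 122 and 126 TPM in PC9-BrM4 and 150 and 159 TPM in PC9, a mean in PC9-AMG of 0.272 of that in PC9. EIF5, which triggers GTP hydrolysis in the initiation complex, was at 133 and 123 TPM in PC9-AMG, 368 and 365 TPM in PC9-BrM4 and 303 and 292 TPM in PC9. It was lower in PC9-AMG at -1.21 ± 0.05 and higher in PC9-BrM4 at 0.30 ± 0.05, and the small nucleolar RNA SNORA28 lies within EIF5 on the same strand. XRCC3, a protein of homologous recombination, held 22.1 and 23.2 TPM in PC9-AMG, 80.6 and 88.0 TPM in PC9-BrM4 and 61.2 and 63.5 TPM in PC9. No lines overlapped, and its differences were -1.42 ± 0.06 and 0.43 ± 0.06. XRCC3 overlaps KLC1, a kinesin light chain on the other strand, which showed -1.18 ± 0.06 and 0.44 ± 0.06. CKB, the brain-type creatine kinase between the sixth and the seventh run, stood apart from both neighbours in PC9-AMG. It held 25.8 and 27.0 TPM there, 63.5 and 67.1 TPM in PC9-BrM4 and 27.5 and 31.7 TPM in PC9. PC9-AMG and PC9 did not overlap, but the difference of -0.16 ± 0.08 did not pass, while PC9-BrM4 was higher at 1.12 ± 0.08. Without PC9 replicate 1 the PC9-AMG difference became -0.26, with a limma adjusted p of 0.039.

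**Figure D4:**
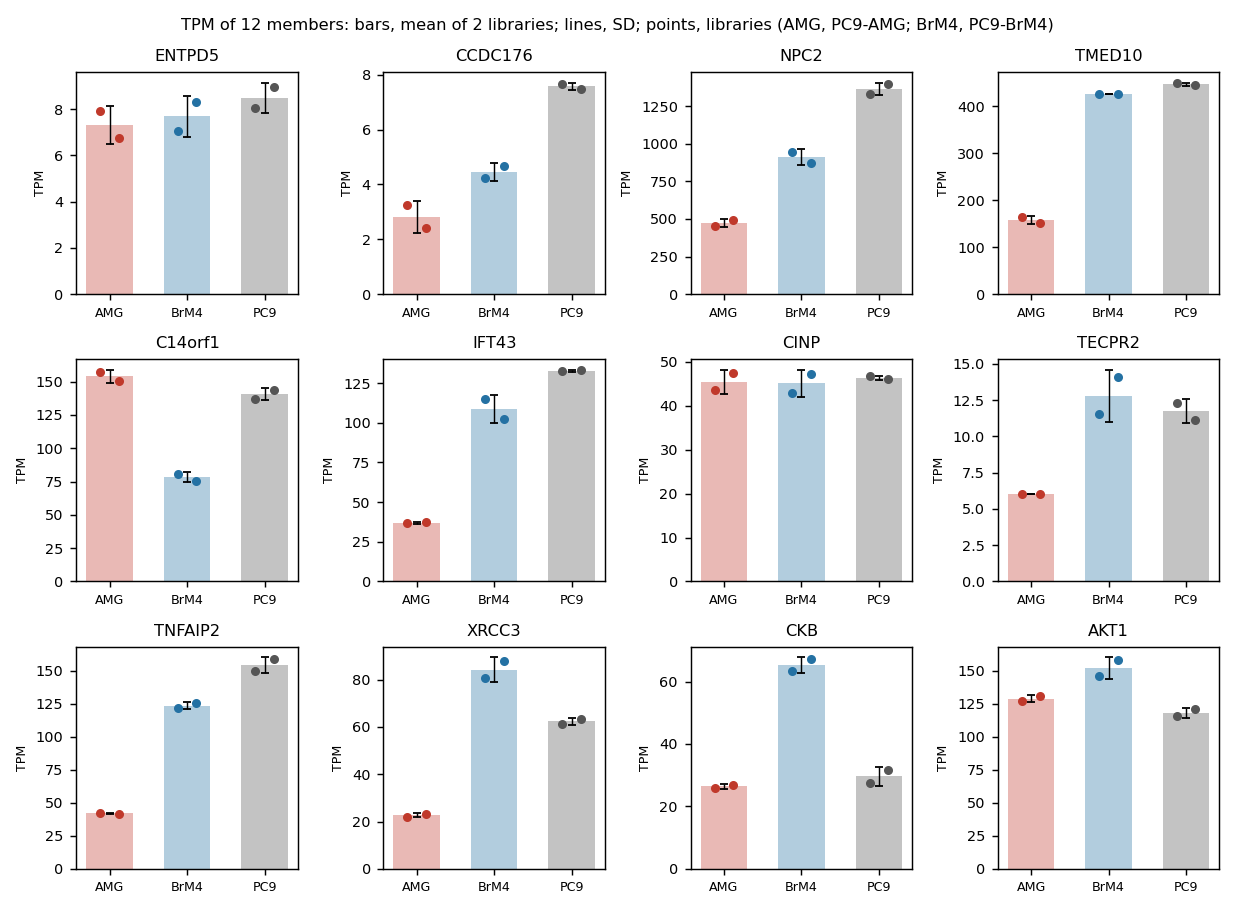
TPM of 12 members in order of start, with bars for the mean of 2 libraries, lines for the SD and points for single libraries of PC9-AMG, PC9-BrM4 and PC9. ENTPD5, C14orf1, CINP, CKB and AKT1 lie outside the runs and show PC9-AMG near PC9, while the other 7 lie inside runs and show PC9-AMG lowest.

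After ZFYVE21, which closed the seventh run at 103733668 bp, no further run of PC9-AMG followed. PPP1R13B, a p53-binding protein of the ASPP family, held 8.60 and 8.99 TPM in PC9-AMG, 11.3 and 12.8 TPM in PC9-BrM4 and 9.97 and 9.85 TPM in PC9, and its difference of -0.16 ± 0.08 in PC9-AMG did not pass. C14orf2, now named ATP5MJ and a small subunit of ATP synthase, was still lower in PC9-AMG at 152 and 165 TPM, against 288 and 237 TPM in PC9-BrM4 and 217 and 218 TPM in PC9 (-0.46 ± 0.09 against PC9). From INF2 to the end of the arm there were 20 members. In PC9-AMG 7 of them were higher, 4 lower and 9 not called, and in PC9-BrM4 10 were higher, 5 lower and 5 not called. Over all tested genes 27.8% were higher and 27.7% lower in PC9-AMG, and 23.4% higher and 23.1% lower in PC9-BrM4. INF2, a formin that builds and severs actin filaments, held 93.8 and 90.9 TPM in PC9-AMG, 94.3 and 106 TPM in PC9-BrM4 and 61.8 and 63.6 TPM in PC9. It rose by 0.55 ± 0.06 in PC9-AMG and by 0.66 ± 0.06 in PC9-BrM4. MTA1, a subunit of the NuRD chromatin remodelling complex, was at 41.2 and 43.0 TPM in PC9-AMG, 42.6 and 46.8 TPM in PC9-BrM4 and 31.8 and 32.9 TPM in PC9, with rises of 0.37 ± 0.06 and 0.45 ± 0.06. CEP170B rose by 0.50 ± 0.10 and 0.70 ± 0.10 in the same order.

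AKT1, the survival kinase downstream of PI3K, held 127 and 130 TPM in PC9-AMG, 146 and 158 TPM in PC9-BrM4 and 115 and 121 TPM in PC9. It was higher in PC9-BrM4 at 0.36 ± 0.05, and its difference of 0.12 ± 0.05 in PC9-AMG did not pass (limma adjusted p = 0.073), except with only the compared lines (limma adjusted p = 0.046). JAG2, a Notch ligand, was at 5.15 and 5.61 TPM in PC9-AMG, 5.89 and 7.13 TPM in PC9-BrM4 and 5.29 and 4.95 TPM in PC9 and was called in neither. Without PC9-BrM4 replicate 1 the JAG2 difference in PC9-BrM4 was 0.41, with a limma adjusted p of 0.029, and it also passed when centred on genes off chromosome 14 (0.28, limma adjusted p = 0.044). BRF1, a factor of RNA polymerase III transcription, was higher in PC9-AMG at 0.31 ± 0.07 and in PC9-BrM4 at 0.35 ± 0.07, and both calls were lost without PC9 replicate 2 (limma adjusted p = 0.076 and 0.058). BRF1 overlaps BTBD6 and PACS2 on the other strand. AHNAK2, a giant scaffold protein, held 8.59 and 7.37 TPM in PC9-AMG, 4.39 and 5.94 TPM in PC9-BrM4 and 10.5 and 10.8 TPM in PC9. It was lower in PC9-BrM4 at -0.93 ± 0.13, while its call in PC9-AMG at -0.38 ± 0.13 was lost without any single library of PC9-AMG or PC9 (limma adjusted p of 0.060 to 0.21), and also with no filter, no mean-variance trend or a replicate block (0.054 to 0.10).

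CRIP2 and CRIP1, neighbouring genes for small LIM-domain proteins, moved in opposite directions in PC9-BrM4. CRIP2 held 24.6 and 28.4 TPM in PC9-AMG, 67.9 and 73.3 TPM in PC9-BrM4 and 32.7 and 28.8 TPM in PC9. It was higher in PC9-BrM4 at 1.17 ± 0.09 and not called in PC9-AMG at -0.21 ± 0.09. CRIP1 held 268 and 273 TPM in PC9-AMG, 174 and 158 TPM in PC9-BrM4 and 310 and 299 TPM in PC9. CRIP1 was lower in PC9-BrM4 at -0.87 ± 0.05, and its call in PC9-AMG at -0.17 ± 0.05 was lost without any single library of PC9-AMG or PC9 (limma adjusted p of 0.062 to 0.14), and also with no filter, no mean-variance trend or centring on genes off chromosome 14 (0.055 to 0.074). Without PC9-AMG replicate 2 the CRIP2 difference in PC9-AMG became -0.31, with a limma adjusted p of 0.044.

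In PC9-BrM4 as a whole, 37 of the 172 members were lower than in PC9 and 45 were higher. Over all tested genes 23.1% were lower and 23.4% higher, so the share of members called in either direction lay near that of all genes. The median of the members was 0.03. By at least 2-fold, 3 members were lower, against 2.01% of all genes, and 4 were higher, against 1.80%. Those lower were DIO2, TC2N and IFI27L2, and those higher were PGF, CRIP2, CKB and DIO3. Under the run rule used for PC9-AMG, 0 members lay in a run in PC9-BrM4, against 180 of 14189 genes, or 1.27%, on all chromosomes. Of the 58 members in the PC9-AMG runs, 13 were lower and 19 higher in PC9-BrM4, with a median of 0.06. The highest shares of rises in PC9-BrM4 came from the sixth stretch. Both comparisons use the same PC9 libraries, so values of the sublines set side by side are not independent.

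Directly between the sublines, 86 members were lower in PC9-AMG than in PC9-BrM4 and 17 were higher, against 28.0% and 28.1% of all tested genes. The median was -0.23. By at least 2-fold, 46 members were lower, against 2.21% of all genes, and 4 were higher, against 3.84%. Those 4 were DIO2, TC2N, IFI27L2 and EML1. On the log2(TPM + 1) scale the lowest direct difference belonged to CDC42BPB, a kinase of actomyosin contraction, at 43.0 and 39.8 TPM in PC9-AMG and 140 and 167 TPM in PC9-BrM4 (-1.86 ± 0.08, limma adjusted p = 3.5e-06). Its PC9 libraries held 106 and 105 TPM, between the sublines. With a pseudocount of 0.1, DIO3, SNORA28, PGF and XRCC3 lay lower. XRCC3 followed at -1.85 ± 0.06 and BAG5, a cochaperone of HSP70, at -1.82 ± 0.07. The runs were picked by low PC9-AMG values, and the direct comparison reuses those libraries, so its direction in the runs is not independent of that choice. In the runs 55 of the 58 members were lower in PC9-AMG than in PC9-BrM4 and 0 were higher, with a median of -1.28. The 3 that did not pass were RPS6KL1, GALC and SPATA7, which are all scarce.

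On chromosome 14 before 70 Mb, 256 genes were tested. In PC9-AMG 126 of them were lower and 31 higher than in PC9, against 27.7% and 27.8% of all tested genes. The median of -0.21 was the same as that of the members to 2 decimals. The spread differed, with quartiles of -1.03 and 0.017 over the members, against -0.37 and 0.0013 before 70 Mb. By at least 2-fold, 3 of the 256 were lower, against 1.66% of all tested genes. In PC9-BrM4, 99 of the 256 were lower and 24 higher, with a median of -0.17. The shares over all tested genes there were 23.1% and 23.4%. No test of the difference between the 2 parts of the chromosome was made, since the span was chosen with these values known.

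Several members work in complexes with products of genes elsewhere in the genome, and 50 such partners were tested. In PC9-AMG 17 of the 50 were lower, 18 higher and 15 not called, with a median of -0.04. Of all tested genes, 27.7% were lower and 27.8% higher. All 5 tested partners of IFT43 in complex A were lower in PC9-AMG by less than IFT43 itself. WDR19 averaged 6.91 ± 0.08 TPM in PC9-AMG and 12.7 ± 0.27 TPM in PC9 (SD, n = 2 each), a log2 difference of -0.79 ± 0.08 (limma adjusted p = 0.00014). IFT140, IFT122, WDR35 and TTC21B showed -0.55, -0.43, -0.38 and -0.34. The call of WDR35 was lost without PC9 replicate 1 (limma adjusted p = 0.0504), and that of TTC21B without PC9 replicate 1, PC9 replicate 2 or PC9-AMG replicate 2 (0.060 to 0.082). In PC9-BrM4, WDR19, WDR35 and IFT140 were also lower than in PC9, at -0.69, -0.34 and -0.30, while IFT122 and TTC21B were not called. Directly between the sublines, IFT122 and IFT140 were lower in PC9-AMG at -0.36 and -0.26, and WDR19, WDR35 and TTC21B were not called. Beside EIF2B2, the other eIF2B subunits EIF2B3, EIF2B4 and EIF2B5 were higher in PC9-AMG at 0.50, 0.50 and 0.47. EIF2B1 showed -0.07, which did not pass. NPC1, the membrane protein that takes cholesterol from NPC2, rose by 0.60 ± 0.09, with means of 43.2 TPM in PC9-AMG and 28.2 TPM in PC9. Of the serine palmitoyltransferase subunits, SPTLC3 was lower at -1.51 ± 0.12. SPTLC1 at -0.14 did not pass, although it did without PC9-AMG replicate 1 (-0.21, limma adjusted p = 0.023), with FPKM, with centring on genes off chromosome 14 and with a replicate block (0.039 to 0.045). The small subunits SPTSSA and SPTSSB were called lower at -0.29 ± 0.09 and -0.79 ± 0.18. The call of SPTSSA was lost with no filter and without PC9 replicate 1, PC9 replicate 2 or PC9-AMG replicate 2, and that of SPTSSB without PC9-AMG replicate 2 (limma adjusted p of 0.062 to 0.14).

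**Figure D5:**
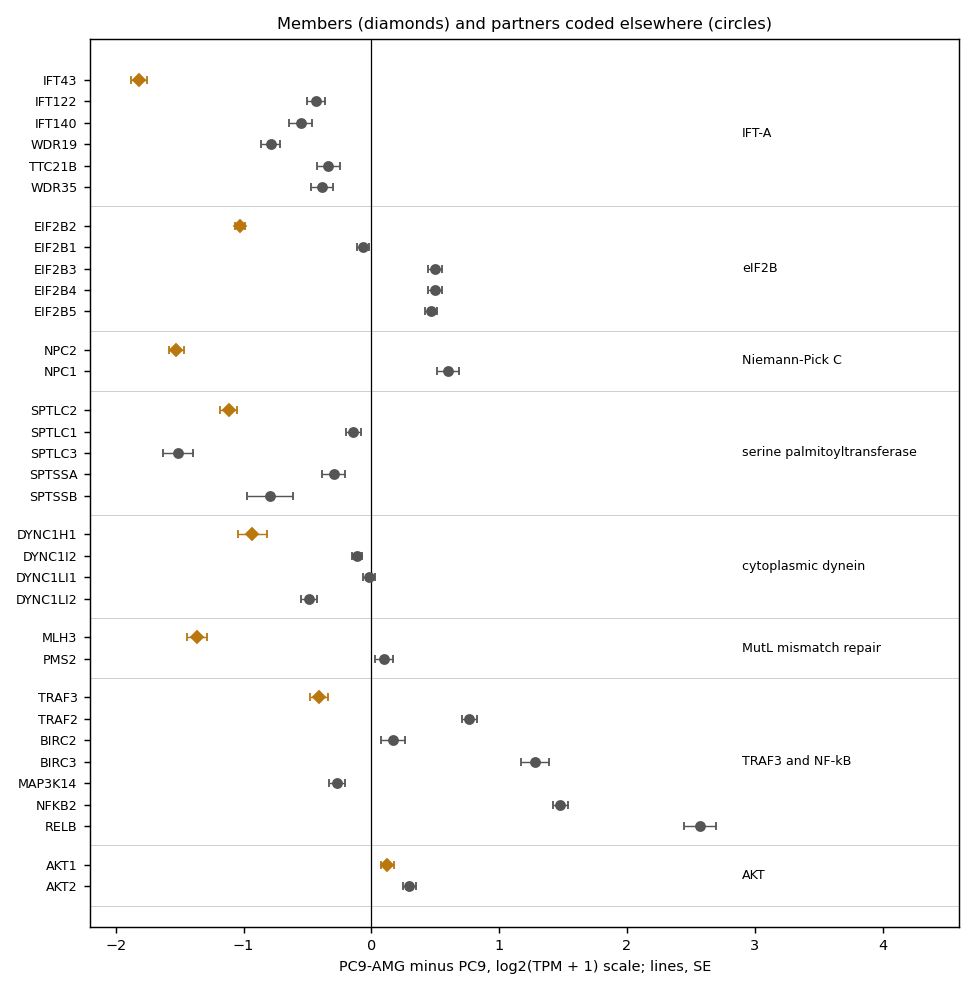
PC9-AMG minus PC9 in log2(TPM + 1), with its SE, for 8 members (diamonds) and for genes coded outside the span whose products work with them (circles), grouped by complex or pathway. The diamonds of all but SPTLC2, which SPTLC3 exceeds to the left, lie left of the partners shown, with TRAF3 near MAP3K14 and AKT1, at 0.12, near AKT2.

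Among the remaining partners, DYNC1LI2, a light intermediate chain of dynein, was lower at -0.49 ± 0.06, and DYNC1LI1 at -0.02 ± 0.05 did not pass. DROSHA, which acts before DICER1 in microRNA processing, fell by 0.62 ± 0.06 on the log2 scale, while the export factor XPO5 rose by 0.37 ± 0.07. Around TRAF3, its partner TRAF2 was higher at 0.77 ± 0.06 and the kinase MAP3K14, which TRAF3 marks for breakdown, lower at -0.27 ± 0.06. The NF-kB subunit RELB held 25.1 and 23.6 TPM in PC9-AMG, 5.12 and 5.42 TPM in PC9-BrM4 and 2.76 and 3.83 TPM in PC9. It was higher in PC9-AMG at 2.57 ± 0.12, as were its partner NFKB2 at 1.48 ± 0.06 and the ubiquitin ligase BIRC3 at 1.28 ± 0.11, while BIRC2 at 0.17 ± 0.10 did not pass. AKT2, a relative of AKT1, was higher at 0.30 ± 0.05. The Notch ligand JAG1, a relative of JAG2, was lower at -1.76 ± 0.07, with 17.4 ± 1.52 TPM in PC9-AMG and 61.3 ± 0.96 TPM in PC9 (SD, n = 2 each). MTA3, a relative of MTA1, was lower at -0.50 ± 0.06.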

How the data were processed

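Messenger RNA of PC9-AMG, PC9-BrM4 and PC9 cells was sequenced with 2 libraries per line, made from TRIzol RNA with a TruSeq Stranded mRNA kit, per the labels' protocols. For each library the authors deposited a gene abundance table whose columns hold TPM, FPKM and coverage signal per the file headers. The submitters' processing notes list HISAT2 2.1.0 and StringTie 1.3.4d, besides bcl2fastq and the build hg38. No annotation release and no strand setting of the counting was stated. A table of the whole series, with 6 columns of values, was left out, since PC9-AMG appears under another name there. The tables of PC9-AMG carry EMG in their names and were assigned by the sample records. Since TPM gives every library 1 fixed sum, values are relative.

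Rows of 1 gene ID were summed. Of 26485 gene IDs, the 14195 that reached 1 TPM in 2 or more of the 6 libraries were tested on log2(TPM + 1) with limma 3.58.1 in R 4.3.3. The fit had 1 mean per line, a mean-variance trend, 3 residual degrees of freedom and a Benjamini-Hochberg adjusted p threshold of 0.05, and was tested on simulated data. Differences on this scale understate changes of low genes. Depth was estimated from the ratio of the deposited coverage to FPKM, at 2.66 to 4.39 gigabases per library, and no counting interval is given. Nothing in the labels tells whether the 2 libraries of a line came from separate cultures. The p-values then reflect spread between these libraries alone, and that spread may be technical. Of the members, 154 matched RefSeq by symbol and 14 by an older symbol. Sequences are from RefSeq on GRCh38.p14.

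The members and lists were chosen with earlier results of these data known. Genes were named by a rule. In each of 6 stretches it takes the 3 members of highest mean TPM, and the members with the lowest and the highest difference of each subline from PC9 among those whose higher line averages 10 TPM or more. A list of further members and of partners outside the span is added. Runs, head-to-head pairs and the genes named for them were chosen after their values were seen. The alternatives were a pseudocount of 0.1, no filter, no trend, only the compared lines, FPKM, centring on genes off chromosome 14, a replicate block, leaving out each library, a start at 80 Mb and a mean of at least 5 TPM. Some named genes are not reported here.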

Additional observations from a re-analysis of the deposited data

Results flagged for a closer look

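The members described here were called lower in PC9-AMG and higher in PC9-BrM4, each against the same PC9 libraries. The direct difference between the sublines was called too. It is the gap between those opposite differences in the same fit, so their choice all but fixes that call and it is no separate support. Among the members of that kind, the 6 with the lowest direct difference on the log2(TPM + 1) scale are given. They were named after their values were seen. The direct log2 difference, PC9-AMG minus PC9-BrM4, was -1.86 for CDC42BPB, a kinase of actomyosin contraction, with -1.33 for PC9-AMG and 0.53 for PC9-BrM4 against PC9. It was -1.85 for XRCC3, a recombination repair protein, -1.82 for the cochaperone BAG5 and -1.78 for the growth factor PGF. The remaining values were -1.78 for PPP2R5C, a phosphatase subunit, and -1.72 for TRMT61A, a tRNA methyltransferase. The adjusted p of the direct difference, from limma, ran from 2.7e-07 for PPP2R5C to 5.1e-06 for PGF, and in all 6 members both PC9-AMG libraries lay below both PC9-BrM4 libraries. All but PGF lie in the sixth stretch.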

How the results depend on the processing

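Counts of members called in each direction stayed within 1.5 times of the reported ones and medians moved by less than the spread between replicates under no filter, no mean-variance trend, FPKM, only the compared lines and centring on genes off chromosome 14. With a pseudocount of 0.1 the median of PC9-AMG against PC9 was -0.26. Members from 80 Mb on were 102. Of these, 37 were lower in PC9-AMG than in PC9 with a median of -0.12, 18 were lower in PC9-BrM4 with a median of 0.10, and 40 were lower in PC9-AMG than in PC9-BrM4 with a median of -0.13. With a mean of at least 5 TPM, 130 members gave a median of -0.28 for PC9-AMG, 19 lower in PC9-BrM4, and 9 higher in PC9-AMG than in PC9-BrM4 with a median of -0.33. Leaving out 1 library at a time gave 74 to 83 lower, 8 to 11 higher and medians of -0.26 to -0.22 for PC9-AMG, and 27 to 33 lower, 33 to 48 higher and medians of -0.015 to 0.068 for PC9-BrM4. For PC9-AMG against PC9-BrM4 it gave 79 to 89 lower, 15 to 17 higher and medians of -0.30 to -0.22. The count of 8 came without PC9 replicate 1, and the median of PC9-BrM4 turned negative without PC9-BrM4 replicate 2. For the differences of the named genes, 1892 alternatives kept call and sign 1798 times, lost the call 65 times, gained it 13 times and changed the sign 16 times. All 16 sign changes concern differences that were not called. Leaving out 1 library at a time, the differences in PC9-AMG ran from -0.23 to 0.0087 for ACOT2, from -0.17 to 0.014 for BATF and from -0.091 to 0.030 for CINP. They ran from -0.048 to 0.0075 for DYNC1LI1, from -0.011 to 0.12 for FLVCR2, from -0.0065 to 0.085 for MED6 and from -0.16 to 0.19 for MIR7641-2. For MOK they ran from -0.043 to 0.034 and for SIPA1L1 from -0.087 to 0.090, and for PAPOLA in PC9-BrM4 from -0.081 to 0.048. Centring on genes off chromosome 14 turned SIPA1L1 to -0.023 and MIR7641-2 to -0.0082, and FPKM turned SIPA1L1 to -0.013. The causes were not tested. Libraries with the same replicate number did not deviate together (correlations of -0.07 to -0.03 across genes). Whether such libraries share a date or a batch is not stated in the labels, and these correlations cannot decide it. With a replicate block, PC9-AMG had 82 members lower and 12 higher than PC9. PC9-BrM4 had 32 lower and 42 higher, and the direct comparison gave 86 lower and 17 higher.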
